A study of Arabidopsis thaliana with 6 samples.

Results

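MYB transcription factors were examined in wild type (WT) and p53-transgenic Arabidopsis seedlings. Members were chosen by name, as every probe set whose array annotation gives a single gene with a symbol that starts with MYB or ATMYB. Of 22746 probe sets, 1 met this rule, and it measures MYBC1 (AT2G40970, probe set 267077_at). The TAIR10.1 reference holds 124 genes with such a symbol, and MYBC1 is the one among them that a probe set names alone in the annotation used here. The label of a whole family is therefore wider than what the annotation names. The annotation lists no gene for 8730 of the probe sets, so other MYB genes may be among those. What follows describes MYBC1, a pair of MYB genes known by other names, and genes that act beside or downstream of MYB factors. The well-known regulators of flavonoid synthesis, of drought and cold responses and of epidermal cell fate, among them MYB12, MYB44, MYB96 and MYB23, were not analysed here.

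MYB proteins bind DNA through a repeated helix-turn-helix domain, and in plants they form a large family that is named for the number of repeats. Members with a pair of repeats act in flavonoid and glucosinolate synthesis, in responses to drought and cold, and in the choice between hair and non-hair cells of the epidermis, where they work in a complex with bHLH and WD40 proteins. Members with a single repeat can compete with them for the bHLH partner, as TRY does, or bind DNA by themselves. MYBC1 is a MYB-like protein of the single-repeat kind that has been described as a negative regulator of freezing tolerance.

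The 6 arrays were hybridized with RNA of whole seedlings at 10 days of age, all of the Col-0 ecotype. There were 3 arrays of WT, which carries no transgene, and 3 of a 35S:P53 genotype, in which a viral promoter active in most tissues drives human p53. The submitters describe the replicates as separate biological experiments, and the labels and methods do not say which of the transgenic lines was used. The deposited values are on a log scale, taken as log2, and each probe set was centred on its median, which is therefore 0 over the 6 arrays. They show differences between arrays and hold no level of expression, so the seedling label could not be checked against levels of marker genes. Of 24 marker genes listed for leaf, root, flower and seed, 2 were named in the array annotation and neither was called. The root hair gene EXPA7 had a log2 difference (p53 minus WT) of -0.02 (adjusted p = 0.947 from limma), and AT3G15670, of the seed list, had one of -0.05 (adjusted p = 0.722).

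MYBC1 was lower in p53-transgenic seedlings than in WT. Its centred log2 values were 0.39, 0.41 and 0.57 in WT replicates 1, 2 and 3. In p53 replicates 1, 2 and 3 they were -0.96, -0.39 and -1.14. All p53 arrays lay below all WT arrays, and a gap of 0.79 separated the lowest WT array from the highest p53 array. Arrays of the genotypes did not overlap for 34.3% of all probe sets, in either direction. With 6 centred arrays the values on either side of the median mirror each other, so the 0.39 of WT replicate 1 and the -0.39 of p53 replicate 2 are fixed by the same pair of measurements. The mean was 0.46 ± 0.10 (SD, n = 3) in WT and -0.83 ± 0.39 (SD, n = 3) in p53-transgenic seedlings. The log2 difference was -1.29 (standard error 0.19, 95% confidence interval -1.74 to -0.84, adjusted p = 0.00629 from limma with Benjamini-Hochberg adjustment over all probe sets), which is 2.44-fold lower if the log is to base 2. Over the whole array 8.84% of probe sets were called lower at an adjusted p under 0.05. An exact two-sided permutation test of the 3 against 3 arrays gave p = 0.1, the smallest that this design allows. Any probe set whose genotypes do not overlap gives this value, so the test adds nothing to the lack of overlap. In RNA of whole seedlings, fewer cells of the kind that makes MYBC1 and less MYBC1 RNA per cell cannot be told apart.

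**Figure D1:**
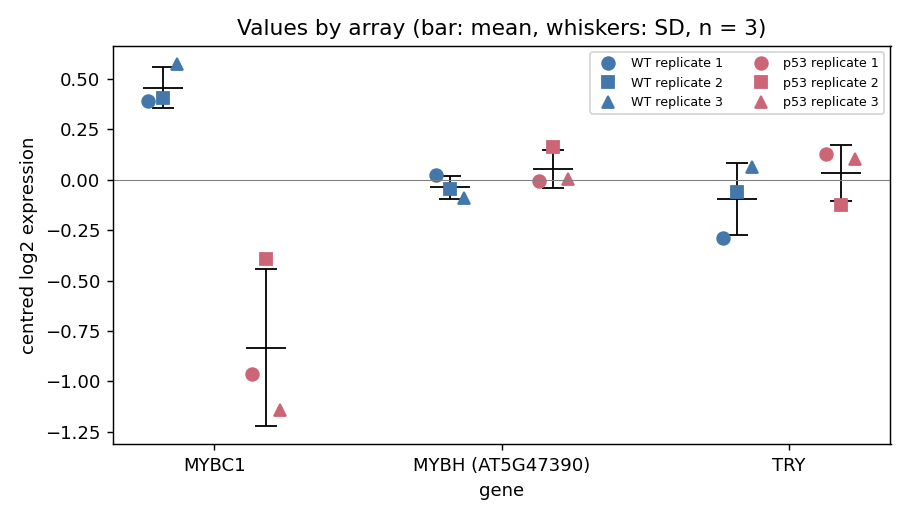
Centred log2 expression (y axis) of MYBC1, MYBH and TRY (x axis) on each of the 3 WT arrays (blue) and 3 p53 arrays (red), with the marker shape giving the replicate number, the bar the mean and the whiskers the SD. For MYBC1 the WT arrays lie between 0.39 and 0.57 and the p53 arrays between -1.14 and -0.39, whereas for MYBH and TRY the arrays of the genotypes overlap.

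The p53 arrays differed more among themselves in MYBC1 than the WT arrays did. The WT arrays spanned 0.18 and the p53 arrays 0.75 on the log2 scale. The SD of 0.10 in WT was close to the median SD of all probe sets, 0.11, while the SD of 0.39 in p53-transgenic seedlings stood against a median of 0.15 and was exceeded by 10.5% of probe sets. p53 replicate 2 was the array nearest to WT. Taken by replicate number, the p53 array was lower than the WT array by a log2 difference of -1.36 for replicate 1, -0.80 for replicate 2 and -1.71 for replicate 3. Since the arrays do not overlap, any pairing of them would give the same direction.

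The call of MYBC1 did not rest on a single array. With each array left out in turn the log2 difference lay between -1.51 (without p53 replicate 2) and -1.14 (without p53 replicate 3), and the adjusted p from limma between 0.000503 and 0.0365. Under the methods' t-test, run on the same values and adjusted in the same way, MYBC1 missed the threshold (adjusted p = 0.0641). Its adjusted p over all alternatives ran from 0.000503 to 0.0641.

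**Figure D2:**
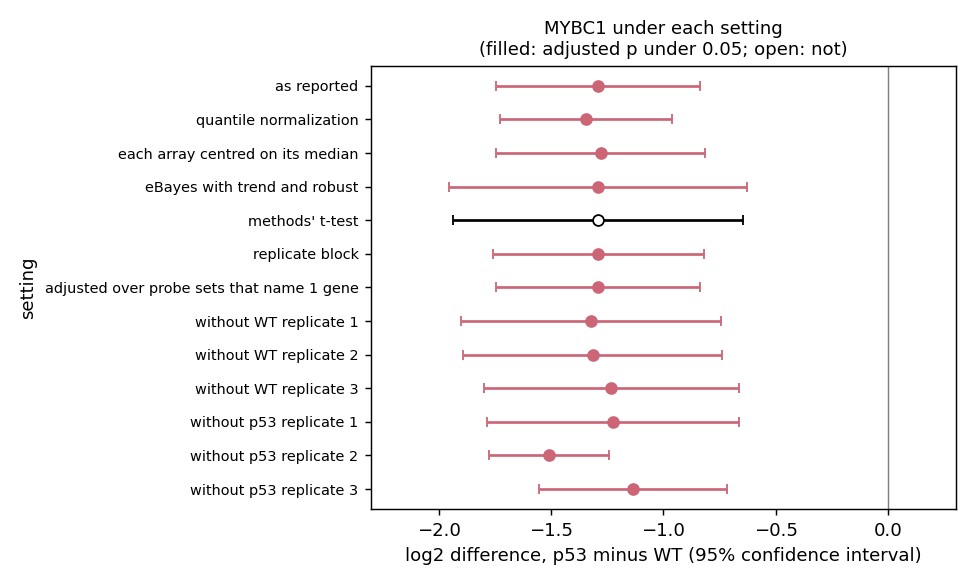
Log2 difference of MYBC1, p53 minus WT (x axis, points), with its 95% confidence interval (lines) under each setting of the analysis (y axis). Every interval lies below 0, and the methods' t-test, the open point with an adjusted p of 0.0641, is the setting in which MYBC1 did not pass.

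Among all 22746 probe sets, 346 had a log2 difference below that of MYBC1, which is 1.52% of the array. Ordered by their log2 difference, MYBC1 was number 328 of the 2010 probe sets called lower. The median log2 difference of those 2010 was -0.71, so the difference of MYBC1 was larger than that of a typical probe set called lower. With p taken from limma, MYBC1 also met the study's cut-offs, a p under 0.05 before adjustment with more than a 2-fold change. It met them with the p of the methods' t-test before adjustment as well (0.00518). By the same limma p, 2.73% of probe sets met them in this direction. The share under the study's own test was not computed.

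**Figure D3:**
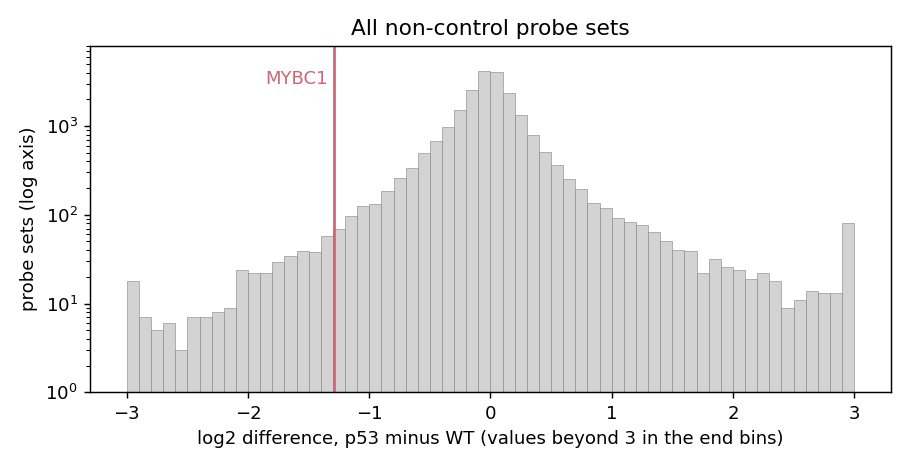
Number of probe sets (y axis, log scale) by log2 difference, p53 minus WT (x axis, bins of 0.1, values beyond 3 collected in the end bins), over all 22746 probe sets. The red line marks MYBC1 at -1.29, in the lower tail, with 346 probe sets to its left.

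On chromosome 2 MYBC1 lies between AT2G40960 and AT2G40980, and neither neighbour was called. AT2G40960 had a log2 difference of -0.06 (adjusted p = 0.886 from limma), with p53 arrays from -0.42 to 0.34 around WT arrays from -0.07 to 0.16. AT2G40980 had one of 0.13 (adjusted p = 0.451) and AT2G40990, the next gene on that side, one of -0.14 (adjusted p = 0.326). The 95% confidence intervals of these 3 genes, -0.51 to 0.39, -0.10 to 0.36 and -0.35 to 0.06, did not reach into that of MYBC1.

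A pair of other MYB genes could be followed although their symbols do not start with MYB, and neither passed the test. AT5G47390, which the reference also lists as MYBH and KUA1 and which acts in cell expansion and hypocotyl elongation, had centred log2 values of 0.03, -0.05 and -0.09 in WT. In p53-transgenic seedlings its values were -0.01, 0.16 and 0.01, so the genotypes overlapped. Its log2 difference was 0.09 (95% confidence interval -0.11 to 0.30, adjusted p = 0.563 from limma). TRY, a single-repeat MYB that keeps cells next to a trichome from becoming trichomes themselves, had values of -0.29, -0.06 and 0.06 in WT and of 0.13, -0.12 and 0.10 in p53-transgenic seedlings. The arrays overlapped, and its log2 difference was 0.13 (95% confidence interval -0.16 to 0.42, adjusted p = 0.554). A change of 2-fold in either direction lay outside the interval of both genes. This holds for the array signal only, since the centred values do not tell whether either gene was detected. Both intervals lie above that of MYBC1, and the differences between these genes were not tested.

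Among cold and dehydration genes, all 4 that could be named, of 20 listed, were lower in p53-transgenic seedlings, where 8.84% of all probe sets were called lower. They were the chloroplast proteins COR15A and COR15B and the dehydrins COR47 and LTI30. On the 3 WT arrays the SD of these genes lay between 0.01 for COR15B and 0.03 for COR15A, against 0.10 for MYBC1. Of the p53 arrays, replicate 3 was the lowest for MYBC1 and for all 4 cold genes. Over all probe sets this array also had the widest spread, with quartiles of -0.15 and 0.16. Those of p53 replicate 1 were -0.12 and 0.09, and those of p53 replicate 2 were -0.13 and 0.09. p53 replicate 2 was the highest of the p53 arrays for MYBC1 and for LTI30, while replicate 1 was the highest for COR15A, COR15B and COR47. The log2 differences of COR47 and COR15A were -1.67 (standard error 0.11, adjusted p = 0.000291 from limma) and -4.00 (standard error 0.24, adjusted p = 0.00019), against -1.29 for MYBC1. The list was known to be lower from earlier results of these data and is no independent evidence. A link between these genes and MYBC1 was not tested.

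In flavonoid synthesis, where MYB factors switch on the enzymes in groups, 10 of 26 listed genes could be named, of which 6 were lower, 4 missed the threshold and 0 were higher. Of all probe sets 8.84% were called lower and 6.55% higher. The median log2 difference of the 10 genes was -1.28, and that of all probe sets was -0.01. These lists too were chosen with earlier results of these data known, so the counts are no independent evidence. UGT78D1, which adds rhamnose to flavonols, had centred log2 values of 1.20, 0.35 and 0.61 in WT and -0.53, -0.35 and -1.18 in p53-transgenic seedlings, without overlap. Its log2 difference was -1.40 with a standard error of 0.28 (adjusted p = 0.0192 from limma). CHIL, a non-catalytic relative of chalcone isomerase that promotes flavonoid production, had values of 1.55, 0.21 and 0.88 in WT and -0.45, -0.29 and -0.21 in p53-transgenic seedlings, and its log2 difference was -1.20 with a standard error of 0.31 (adjusted p = 0.0435). UGT78D2, which adds glucose to flavonols and anthocyanidins, had values of 1.76, 0.14 and 0.94 in WT and -0.31, -0.28 and -0.14 in p53-transgenic seedlings. Its arrays did not overlap either, which holds for 34.3% of all probe sets, but it did not pass (log2 difference -1.19, adjusted p = 0.0758).

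The late enzymes of the anthocyanin branch, DFR, UF3GT and AT5MAT, and AT4G14090 of the same list were called lower, with log2 differences of -2.81, -2.46, -1.36 and -2.81. BAN, which turns anthocyanidins toward the tannins of the seed coat, had one of -0.09 (adjusted p = 0.711 from limma), and UGT78D3, which adds arabinose to flavonols, one of -0.10 (adjusted p = 0.619). AT1G06000, of the flavonol list, had one of -0.44 (adjusted p = 0.479), which was -0.05 without WT replicate 1 and -0.74 without WT replicate 2 and passed in neither case (adjusted p = 0.933 and 0.222). WT replicate 2 was the lowest WT array for all 6 flavonoid genes called lower, for UGT78D2 and for AT1G06000. In MYBC1 the same array, at 0.41, lay between the other WT arrays. The calls of CHIL, UGT78D1, DFR, UF3GT and AT5MAT were lost when WT replicate 1, WT replicate 3 or p53 replicate 1 was left out (adjusted p from 0.0582 to 0.146), that of CHIL also without p53 replicate 2 (0.0620) or replicate 3 (0.0599). AT4G14090 kept its call with any single array left out, and none of the 6 passed with the methods' t-test (adjusted p of AT4G14090 0.0691). Before adjustment, p from that same test ran from 0.00606 (AT4G14090) to 0.0381 (CHIL). With changes of more than 2-fold, all 6 therefore met the study's cut-offs. In the limma fit with a trended and robust variance, CHIL and UF3GT missed the threshold after adjustment (adjusted p = 0.0868 and 0.0506). So did CHIL after quantile normalization (adjusted p = 0.0536). UGT78D2 passed without WT replicate 2 (adjusted p = 0.0165).

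Of the genes of epidermal cell fate, 1 of 4 on the list of 14 was lower in p53-transgenic seedlings, against 8.84% of all probe sets, and the other 3 did not pass. GIS, a zinc finger factor that promotes trichome formation in response to gibberellin, had centred log2 values of 0.54, 0.61 and 0.24 in WT and -0.53, -0.24 and -0.37 in p53-transgenic seedlings, without overlap, as in 34.3% of all probe sets. Its log2 difference was -0.85 with a standard error of 0.13 (adjusted p = 0.00729 from limma), and under the methods' t-test its adjusted p was 0.0565. The bHLH factors of the stomatal lineage, SPCH, MUTE and FAMA (FMA in the annotation), had log2 differences of -0.10, 0.20 and -0.10, with adjusted p-values of 0.568, 0.406 and 0.689. Of 14 partners and competitors of MYB factors, TRY and ATMYC1 were named, and neither passed. ATMYC1, a bHLH protein that joins the epidermal MYB complex, had a log2 difference of 0.01 (95% confidence interval -0.22 to 0.25, adjusted p = 0.951).

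Cuticle and lignin genes, which also stand under MYB control in Arabidopsis, were represented by few members. WSD1, which makes the wax esters of the stem surface, had centred log2 values of 1.01, 0.75 and 0.81 in WT and -1.26, -0.75 and -1.28 in p53-transgenic seedlings. Its log2 difference was -1.95 with a standard error of 0.16 (adjusted p = 0.000687 from limma), and it was the 1 gene of 14 listed for wax and cutin that could be named. HCT, an acyltransferase of the lignin pathway, had values of -0.16, -0.29 and -0.44 in WT and 0.57, 0.64 and 0.16 in p53-transgenic seedlings, and was the one gene of the pathway lists called higher. It rose by 0.75 (standard error 0.15, adjusted p = 0.0177), where 6.55% of all probe sets were called higher. Its call was lost when WT replicate 2, WT replicate 3 or p53 replicate 1 was left out (adjusted p from 0.0574 to 0.0784) and with the methods' t-test (0.0932). GUT2, a xylan synthesis gene, had a log2 difference of 0.01 (adjusted p = 0.961).

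Of 21 genes listed for glucosinolate synthesis 3 were named, and none of them passed. BCAT4, an aminotransferase of methionine chain elongation, had centred log2 values of 0.06, -0.01 and 0.01 in WT and -0.61, 0.25 and -0.46 in p53-transgenic seedlings, where replicate 2 stood above WT and the others below it. Its log2 difference was -0.30 (adjusted p = 0.439 from limma), and without p53 replicate 2 it was -0.56 and passed (adjusted p = 0.0106). AT2G31790, of the aliphatic list, had values of 0.18, 0.02 and -0.02 in WT and -0.38, 0.30 and -0.84 in p53-transgenic seedlings, with replicate 2 again above WT. Its log2 difference was -0.37 (adjusted p = 0.435), and it also passed without p53 replicate 2 (log2 difference -0.67, adjusted p = 0.0299). UGT74B1, a glucosyltransferase of the glucosinolate core, had a log2 difference of -0.03 (adjusted p = 0.946).

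**Figure D4:**
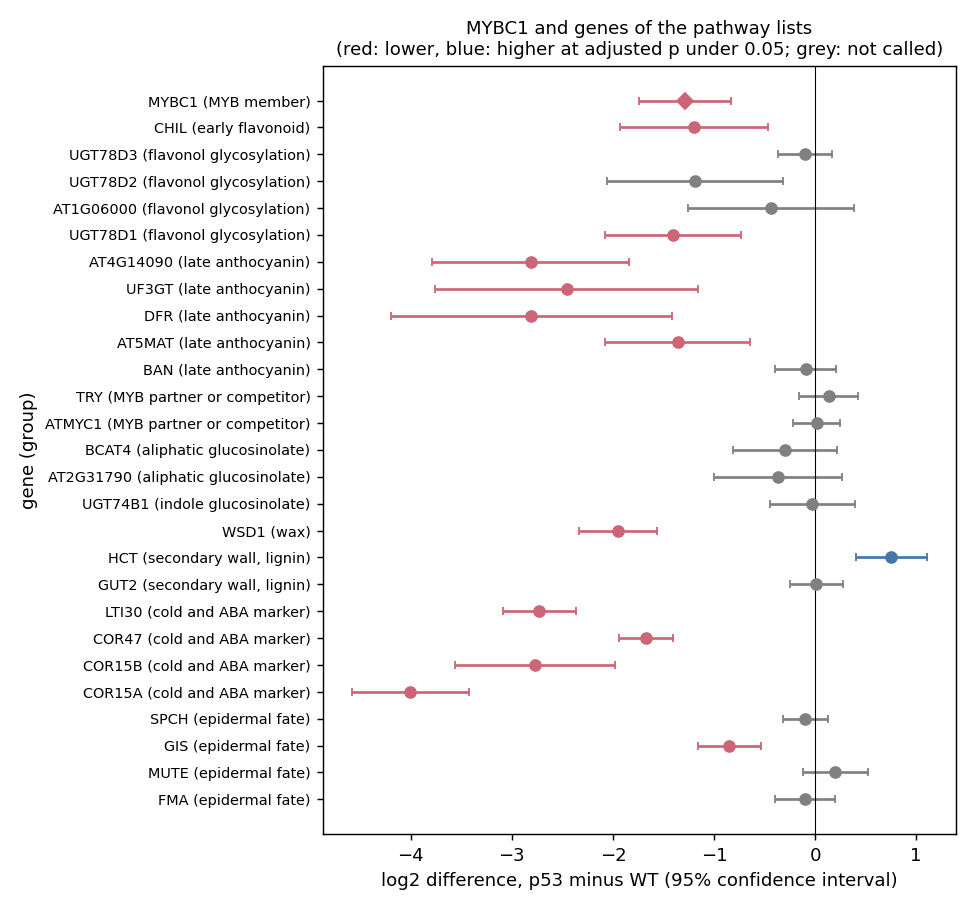
Log2 difference, p53 minus WT (x axis, points), with its 95% confidence interval (lines) for MYBC1 (diamond) and the 26 genes of the pathway lists that could be named (y axis). Of these 26 genes 12 were called lower (red), 1 higher (blue) and 13 were not called (grey), where 8.84% of all probe sets were called lower and 6.55% higher, and MYBC1 at -1.29 lies among those called lower.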

How the data were processed

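The deposited values come from GeneChip Arabidopsis ATH1 arrays. The authors summarized probe sets with PLIER, according to the processing notes, and used GeneSpring for statistics. The deposited values are taken as log2 expression, with every probe set centred on its median. The sources used here give neither the base of the log nor the background correction or normalization between arrays. No other file was used, so background correction, a filter on dim probes and slides could not be varied, and the number of arrays limits the precision.

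After 64 control rows were left out, 22746 probe sets were fitted together in limma 3.58.1 under R 4.3.3, using lmFit and eBayes for p53 minus WT without covariates, and p-values were adjusted by Benjamini-Hochberg over all of them. Adjusted p-values come from limma except where the methods' t-test is stated. The annotation names 1 gene for 13513 probe sets, several for 503 and none for 8730, and 13436 of the 13513 were matched to TAIR10.1 by gene identifier. Named are the member, MYB genes with other symbols, chromosomal neighbours and every measured gene of 10 pathway and 4 marker lists. Listed symbols were matched by locus, and 6 matches that belonged to another gene or list were left out, among them CHI, a chitinase in the reference. Members, lists and tests were chosen with earlier results of these data known, and the other-name genes and neighbours after the annotation was seen. A further list of 112 MYB genes by role had 0 members named alone by a probe set in the annotation.

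Same-numbered arrays deviated together from their group means (r = 0.12, 0.27 and 0.34 over probe sets, each over the limit of 0.1). The numbers may therefore pair the arrays. The reported fit nevertheless used no block, and a replicate block was run as 1 of the alternatives. The fit of p53 against WT was first tested on simulated data. There, 67, 67 and 66 of 22746 probe sets were changed by 1.5-fold, 2-fold and 4-fold. The fit recovered 26.9%, 80.6% and 95.5% of them, so in the simulation smaller changes were often missed. Far more probe sets were called in the data, 1490 higher and 2010 lower, and the adjustment is stricter when fewer change. The recovered shares therefore do not carry over to the data.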

Additional observations from a re-analysis of the deposited data

How the results depend on the processing

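MYBC1 was lower under all 12 alternatives and passed under 11 of them. With the methods' t-test its log2 difference was -1.29 with an adjusted p of 0.0641, so 0 members were called lower there against 1 otherwise. No member was called higher under any alternative. With the replicate number as a block the log2 difference of MYBC1 was -1.29 (adjusted p = 0.0128), and the block changed no call among the named genes. With quantile normalization the log2 difference was -1.34. Leaving out 1 array at a time gave -1.51 to -1.14. Symbols made of MYB and a number alone matched 0 probe sets, so that alternative gave no value.

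Over all probe sets, 1490 were called higher and 2010 lower. With the methods' t-test these counts were 668 and 743, and 724 and 1073 when p-values were adjusted over probe sets that name 1 gene, where fewer were tested. Leaving out 1 array at a time gave 722 to 1961 higher and 899 to 2385 lower. The cause of the other changes was not tested.

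Reversals occurred among genes that were not called. Leaving out 1 array at a time, the log2 difference ran from -0.039 to 0.080 for ATMYC1, from -0.055 to 0.11 for GUT2, from -0.18 to 0.13 for UGT74B1, from -0.10 to 0.079 for EXPA7 and from -0.24 to 0.14 for AT2G40960. With quantile normalization it was 0.0025 for both UGT74B1 and EXPA7. Centring removed signal over background, so a gene near 0 may be one that was not detected.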
